A study of Homo sapiens with 4 samples.

Results

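The genes described are 49 genes of the DNA replication origin and the replication fork, measured in C4-2 cells. C4-2 is a long-established cell line of human prostate cancer. The members were listed by symbol, and their rows were found through the Ensembl gene identifiers of the count tables. They make up 49 of 60483 counted identifiers, and all 49 passed the filter on low counts. Total RNA was sequenced from 2 libraries of enzalutamide-resistant cells, called C4-2-ENZ, and 2 libraries of control cells, called C4-2-CON. Enzalutamide is a drug given against prostate cancer. All cells were at passage 20 to 30 and were kept in RPMI medium with fetal bovine serum, and the drug was given or withheld for 1 month. The labels do not separate drug exposure from the resistant phenotype, so drug and resistance cannot be told apart in any value given here. The growth notes also name FGF-2 with an expansion medium, without saying which cells received it. Nothing in the labels says that the 2 libraries of a group are separate cultures. The p-values therefore measure only how far these libraries differ, which may be technical.

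Before a cell copies its DNA, the origin recognition complex marks origins, and CDC6 and CDT1 help it load the ring-shaped MCM helicase, a step called licensing. Geminin, encoded by GMNN, binds CDT1 and blocks loading once DNA synthesis has begun. The kinase CDC7 with its partner DBF4 then lets CDC45 and the GINS complex join the helicase, and polymerases, the sliding clamp PCNA and single-strand binding proteins carry out synthesis at the forks. Many of these genes are known targets of the E2F transcription factors and are transcribed mainly in dividing cells.

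Most of the replication genes were lower in C4-2-ENZ cells. Of the 49 members, 41 (83.7%) were called lower, 3 were called higher and 5 were not called, at an edgeR adjusted p below 0.05. Of all 20325 genes tested, 31.7% were called lower and 33% higher, and of the 13942 protein-coding genes among them 31.4% were called lower and 42.3% higher. The median log2 fold change of C4-2-ENZ over C4-2-CON was -0.52 over the members, -0.016 over all genes tested and 0.088 over protein-coding genes. Falls of at least 2-fold were called in 14 members, against 10.1% of all genes tested and 7.26% of protein-coding genes. The 14 were RPA3, GMNN, POLE2, ORC6, GINS2, DBF4, PRIM1, PCNA, GINS1, RFC4, ORC5, CDC45, MCM10 and RFC3. With the correction for gene length and GC content, 10 members passed this threshold, and with total count scaling 12. The share of all genes passing it under these other settings was not counted. With the length and GC correction PRIM1 (log2 fold change -0.99), RFC4 (-0.95), ORC5 (-0.83) and RFC3 (-0.63) fell short of 2-fold but stayed called lower. The members higher in C4-2-ENZ were RPA1, RFC1 and MCM2, and those not called were MCM6, POLA1, POLD1, RFC2 and LIG1.

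The members were spread over a wide range, with log2 fold changes of -1.97 for RPA3 at one end and 0.53 for RPA1 at the other, both of them subunits of the same complex. Summed over the 49 members, the levels in CPM (counts divided by library size, with sizes scaled by the TMM method of edgeR) were 2534 and 2525 in the C4-2-ENZ libraries, against 3775 and 3829 in the C4-2-CON libraries. The libraries of the 2 groups overlapped in 3 members, RFC2, LIG1 and POLD1, and in no other. The share of all genes with such overlap was not counted, so this count has no background to be read against. Scaling by total gene count in place of TMM moved the median of all genes up by 0.188 on the log2 scale and left 32 members called lower and 6 called higher. On that scale 23.4% of all genes were called lower and 42.4% higher. In RNA of whole cultures, fewer cells in DNA synthesis and less RNA of these genes per cell cannot be told apart.

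**Figure D1:**
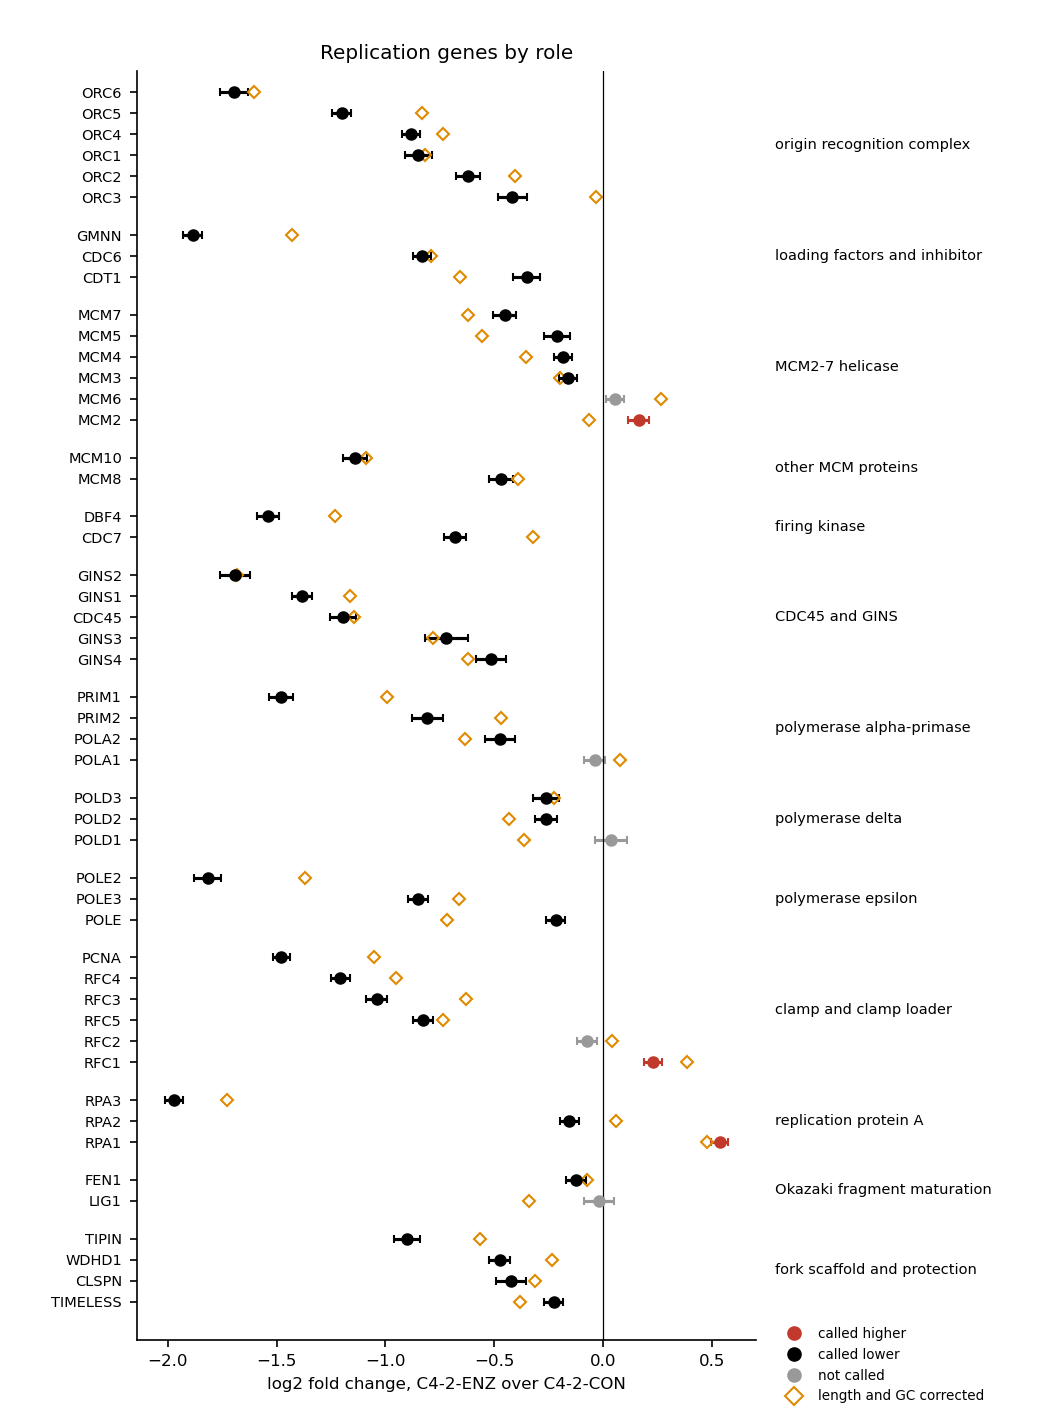
Log2 fold change of C4-2-ENZ over C4-2-CON for each of the 49 replication genes, grouped by role, with bars of 1 standard error (edgeR, 2 libraries per group) and open diamonds for the fit corrected for length and GC content. Most points lie left of 0, the MCM2-7 and polymerase delta genes lie close to it, and MCM2, which is right of 0, has its diamond left of 0.

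**Figure D2:**
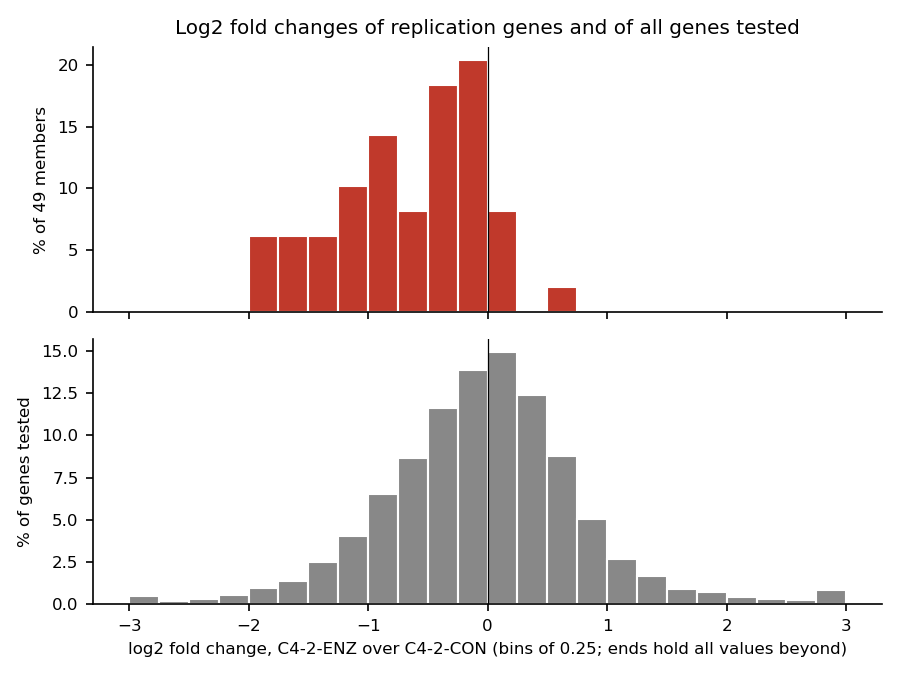
Share of the 49 replication genes (upper panel) and of the 20325 genes tested (lower panel) in each 0.25-wide bin of log2 fold change, C4-2-ENZ over C4-2-CON, with values beyond 3 in either direction held in the end bins. The replication genes lie mainly between -2 and 0, while the genes tested are spread to both sides of 0.

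The libraries differed in makeup. Gene counts totalled 45033885 and 39047453 in the C4-2-ENZ libraries, against 25589724 and 29866008 in the C4-2-CON libraries, and reads not aligned made up 20.3% and 20.7% of the records in C4-2-ENZ, against 37.0% and 34.2% in C4-2-CON. The part of these differences in the results was not tested. Of the luminal prostate markers, HOXB13 had 358 and 344 CPM in C4-2-ENZ, against 235 and 261 CPM in C4-2-CON, and the luminal keratin KRT8 had 161 and 164 CPM in C4-2-ENZ, against 90.3 and 94.6 CPM in C4-2-CON. KLK3, prostate-specific antigen, had 487 and 477 CPM in C4-2-ENZ, against 663 and 692 CPM in C4-2-CON. Of 10 luminal markers, 8 were called higher, HOXB13 and KRT8 among them, and 2, KLK3 and KLK2, lower, though KLK2 had a log2 fold change of 0.059 and no call with total count scaling. Markers of other cell types were scarce. The 9 fibroblast markers summed to 9.37 and 8.83 CPM in C4-2-ENZ, against 9.19 and 11.3 CPM in C4-2-CON, and the 7 endothelial ones to 4.36 and 3.74 CPM in C4-2-ENZ, against 5.37 and 4.67 CPM in C4-2-CON. The 9 leukocyte markers summed to 4.44 and 4.46 CPM in C4-2-ENZ, against 2.14 and 2.03 CPM in C4-2-CON. ITGAM, 10.3-fold higher, was the only marker among them that was called. It had 3.38 and 3.04 CPM in C4-2-ENZ, against 0.378 and 0.249 CPM in C4-2-CON. The 7 neural stem cell markers summed to 2.84 and 2.80 CPM in C4-2-ENZ, against 4.28 and 5.45 CPM in C4-2-CON. In these lists COL3A1, KDR and ESAM were also called higher, and COL1A1, VWF and NES lower. The KDR call, 18.2-fold, rests on 24 and 13 counts in C4-2-ENZ and 0 and 1 counts in C4-2-CON. COL1A2 and CD3E were at 0 in every library, and the part of these cell types in the results was not tested.

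Promoter sequence was set beside the counts for the members found in a RefSeq table of windows from 250 bases before to 50 bases after each transcription start (GRCh38.p14). The table held 43 of the 49 members, all but MCM4, MCM5, GINS4, POLD3, RPA2 and RPA3. E2F words were counted as TTTCGCGC, TTTGGCGC, TTTCCCGC or TTTGCCGC on either strand. They occurred in 22 of the 43 members (51.2%), against 3.99% of all 27305 genes in the table. The CHR words TTTGAA or TTTAAA, named after an element of cell cycle genes, occurred in 4 of 43 members (9.30%) and 27.9% of all genes, and CCAAT in 25 of 43 (58.1%) and 39.7%. The median GC content was 64% in the members' windows and 58.7% in all windows. The part of base composition in these shares was not tested. Of the 22 members with an E2F word, 18 were called lower, 1 (MCM2) higher and 3 were not called. A word was present in 18 of 35 members called lower and in 4 of the 8 others. The median log2 fold change was -0.47 with a word and -0.83 without.

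The windows below run 5′ to 3′ on the gene's strand from 180 bases before the start to 20 bases after it, with E2F words in capitals. They show 4 genes that fell strongly and carry a word. GMNN lies at chr6:24775233-24775432 on the + strand, POLE2 at chr14:49688195-49688394 on the - strand, GINS2 at chr16:85688935-85689134 on the - strand and PCNA at chr20:5126603-5126802 on the - strand. Where a gene had several start sites, the window with the word is shown. The words begin 80, 5, 31 and 59 bases before the start, in that order.
GMNN: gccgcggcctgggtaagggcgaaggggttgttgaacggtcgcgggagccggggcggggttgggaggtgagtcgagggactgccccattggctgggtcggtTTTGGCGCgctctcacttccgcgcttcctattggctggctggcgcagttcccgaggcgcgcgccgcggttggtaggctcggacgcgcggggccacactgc
POLE2: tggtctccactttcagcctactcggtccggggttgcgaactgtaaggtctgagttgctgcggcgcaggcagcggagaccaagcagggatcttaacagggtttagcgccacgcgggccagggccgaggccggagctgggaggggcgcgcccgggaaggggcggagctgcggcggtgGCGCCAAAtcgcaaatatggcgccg
GINS2: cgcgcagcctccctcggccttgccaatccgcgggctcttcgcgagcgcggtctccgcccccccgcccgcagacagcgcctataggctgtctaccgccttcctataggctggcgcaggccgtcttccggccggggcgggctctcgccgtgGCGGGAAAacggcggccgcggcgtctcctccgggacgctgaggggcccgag
PCNA: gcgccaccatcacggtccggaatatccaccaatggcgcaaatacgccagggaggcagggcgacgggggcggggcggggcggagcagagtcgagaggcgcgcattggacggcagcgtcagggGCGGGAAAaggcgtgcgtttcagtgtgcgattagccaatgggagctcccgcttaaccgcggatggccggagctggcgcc

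The same words stand in 3 genes that were not called. LIG1 lies at chr19:48170325-48170524 on the - strand, MCM6 at chr2:135876424-135876623 on the - strand and POLA1 at chrX:24693738-24693937 on the + strand. LIG1 has a word 114 bases and POLA1 137 bases before the start. MCM6 has 4 words, read from both strands as 2 overlapping pairs, which begin 152, 148, 90 and 86 bases before the start.
LIG1: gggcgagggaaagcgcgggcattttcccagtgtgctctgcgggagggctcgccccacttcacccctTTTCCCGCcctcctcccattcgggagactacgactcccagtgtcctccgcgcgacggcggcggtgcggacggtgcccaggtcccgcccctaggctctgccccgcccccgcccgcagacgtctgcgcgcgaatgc
MCM6: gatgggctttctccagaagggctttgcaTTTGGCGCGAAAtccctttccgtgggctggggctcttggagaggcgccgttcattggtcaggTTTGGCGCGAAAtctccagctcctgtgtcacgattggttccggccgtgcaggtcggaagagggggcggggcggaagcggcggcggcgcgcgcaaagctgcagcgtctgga
POLA1: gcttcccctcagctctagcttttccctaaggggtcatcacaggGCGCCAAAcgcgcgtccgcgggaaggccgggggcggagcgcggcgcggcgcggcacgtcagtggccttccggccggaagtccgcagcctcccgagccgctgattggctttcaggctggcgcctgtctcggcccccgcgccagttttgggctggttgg
These words thus stood both in genes that fell and in genes that were not called. A match to these words is no evidence that a factor binds there.

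The origin recognition complex, which binds origins and starts helicase loading, was lower in all 6 subunits, with a median log2 fold change of -0.87. ORC6, the smallest subunit, had 12.1 and 12.3 CPM in C4-2-ENZ, against 38.0 and 41.1 CPM in C4-2-CON. It fell 3.24-fold (log2 fold change -1.70, SE 0.0641, edgeR adjusted p = 7.88e-10). ORC6 lies on chromosome 16 at 46689643 to 46698394 (GRCh38, + strand). ORC1, the large ATPase subunit that is known to vary through the cell cycle, had 13.8 and 14.0 CPM in C4-2-ENZ, against 24.1 and 25.8 CPM in C4-2-CON (log2 fold change -0.85, SE 0.0628, edgeR adjusted p = 2.31e-07). ORC5, ORC4, ORC2 and ORC3 had log2 fold changes of -1.20, -0.88, -0.62 and -0.42. ORC3 was no longer called after correction for gene length and GC content (log2 fold change -0.03, edgeR adjusted p = 0.653). Scaled to exon length, ORC6 made up 7.54% and 7.65% of the summed level of the complex in C4-2-ENZ, against 11.7% and 12.6% in C4-2-CON.

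All 3 licensing regulators fell, and the inhibitor fell most. GMNN, on chromosome 6 at 24774931 to 24786099 (+ strand), had 23.8 and 23.5 CPM in C4-2-ENZ, against 87.3 and 87.4 CPM in C4-2-CON. The libraries of each group lay close together and far from the other group, and GMNN fell 3.69-fold (log2 fold change -1.89, SE 0.0438, edgeR adjusted p = 2.4e-11). CDT1, the loading factor that geminin inhibits, had 14.8 and 15.3 CPM in C4-2-ENZ, against 19.1 and 19.3 CPM in C4-2-CON (log2 fold change -0.35, SE 0.061, edgeR adjusted p = 0.000332). CDC6, the ATPase that loads the helicase with the origin complex, had a log2 fold change of -0.83. Per kilobase of exon, the ratio of GMNN to CDT1 was 2.17 and 2.07 in C4-2-ENZ and 6.17 and 6.11 in C4-2-CON. The ratio was thus lower in both C4-2-ENZ libraries, and this difference was not tested. From the fitted fold changes it was 2.90-fold lower, but 1.71-fold with the length and GC correction, where GMNN had -1.43 and CDT1 -0.66. It comes from RNA and says nothing of the proteins, which are known to be degraded in turn through the cell cycle.

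The genes of the MCM2-7 helicase, the ring that unwinds DNA, showed small differences under TMM. There 4 of 6 were called lower, 1 higher and 1 was not called, with a median log2 fold change of -0.17. Scaling by total count gave 1 lower and 2 higher and a median of 0.016. The length and GC correction gave 4 lower and 1 higher and a median of -0.28. With that correction MCM7 had -0.62, MCM5 -0.56, MCM4 -0.36 and MCM3 -0.20, each called lower. MCM7 had 130 and 129 CPM in C4-2-ENZ, against 166 and 187 CPM in C4-2-CON, and was the subunit that fell most (log2 fold change -0.45, SE 0.0531, edgeR adjusted p = 1.37e-05). MCM3, MCM4 and MCM5 had log2 fold changes of -0.16, -0.18 and -0.21, and with total count scaling 0.028 for MCM3, 0.0039 for MCM4 and -0.024 for MCM5, none of them called there. MCM3 and MCM4 also lost their calls without either C4-2-ENZ library, and MCM5 without C4-2-CON replicate 2, with edgeR adjusted p-values of 0.0625 to 0.124.

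MCM2 had 118.6 and 118.0 CPM in C4-2-ENZ, against 100.9 and 110.2 CPM in C4-2-CON. It was called higher (log2 fold change 0.16, SE 0.0483, edgeR adjusted p = 0.0109), but the value was -0.07 with the length and GC correction. The call also ended without C4-2-ENZ replicate 1, with a 1 CPM filter and with protein-coding genes only (edgeR adjusted p = 0.0696, 0.0528 and 0.171). MCM6 had 68.0 and 66.8 CPM in C4-2-ENZ, against 65.4 and 64.4 CPM in C4-2-CON, and was not called (log2 fold change 0.05, SE 0.0415, edgeR adjusted p = 0.279). It was called higher after the length and GC correction (log2 fold change 0.27) and when scaled by total count (0.24), and its value was -0.036 in a fit of protein-coding genes only. Of the MCM proteins outside the ring, MCM10, which is needed for the helicase to start unwinding, had 20.4 and 21.6 CPM in C4-2-ENZ, against 46.7 and 45.8 CPM in C4-2-CON. It fell 2.20-fold (log2 fold change -1.14, SE 0.0556, edgeR adjusted p = 6.44e-09). MCM8, a helicase known from DNA repair by recombination, had a log2 fold change of -0.47.

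Both subunits of the firing kinase, which acts on the loaded helicase, were called lower. DBF4, the regulatory subunit of the firing kinase, had 36.5 and 36.1 CPM in C4-2-ENZ, against 109.8 and 101.6 CPM in C4-2-CON. It fell 2.91-fold (log2 fold change -1.54, SE 0.0488, edgeR adjusted p = 2.08e-10). Its processed pseudogene DBF4P1 had only 10 and 8 counts in C4-2-ENZ and 17 and 12 counts in C4-2-CON. CDC7, the catalytic subunit, had a log2 fold change of -0.68. The ratio of DBF4 to CDC7 per kilobase of exon was 0.797 and 0.791 in C4-2-ENZ and 1.45 and 1.43 in C4-2-CON. Which subunit was the more abundant transcript therefore differed between the groups, on a scale that depends on the exon lengths used.

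All 5 genes of CDC45 and the GINS complex, which complete the active helicase, were lower, and their log2 fold changes had a median of -1.19. GINS2 had 14.6 and 14.0 CPM in C4-2-ENZ, against 43.7 and 48.7 CPM in C4-2-CON. It fell 3.23-fold (log2 fold change -1.69, SE 0.0672, edgeR adjusted p = 1.19e-09), and the length and GC correction left the value at -1.68. GINS1 and CDC45 had log2 fold changes of -1.38 and -1.19, and GINS3 and GINS4 of -0.72 and -0.52. GINS3 was the least abundant member per kilobase of exon in both groups and had 6.60 and 7.09 CPM in C4-2-ENZ, against 10.2 and 12.3 CPM in C4-2-CON. These rest on 318 and 294 counts in C4-2-ENZ and 242 and 344 counts in C4-2-CON, the fewest of any member in every library. The exons of GINS3 and GINS4 share 10.9% and 21.2% of their bases with antisense genes. The strand setting of the counting is not stated, so these values are less certain. Per kilobase of exon, the ratio of GINS2 to MCM2 was 0.185 and 0.178 in C4-2-ENZ and 0.651 and 0.664 in C4-2-CON.

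**Figure D3:**
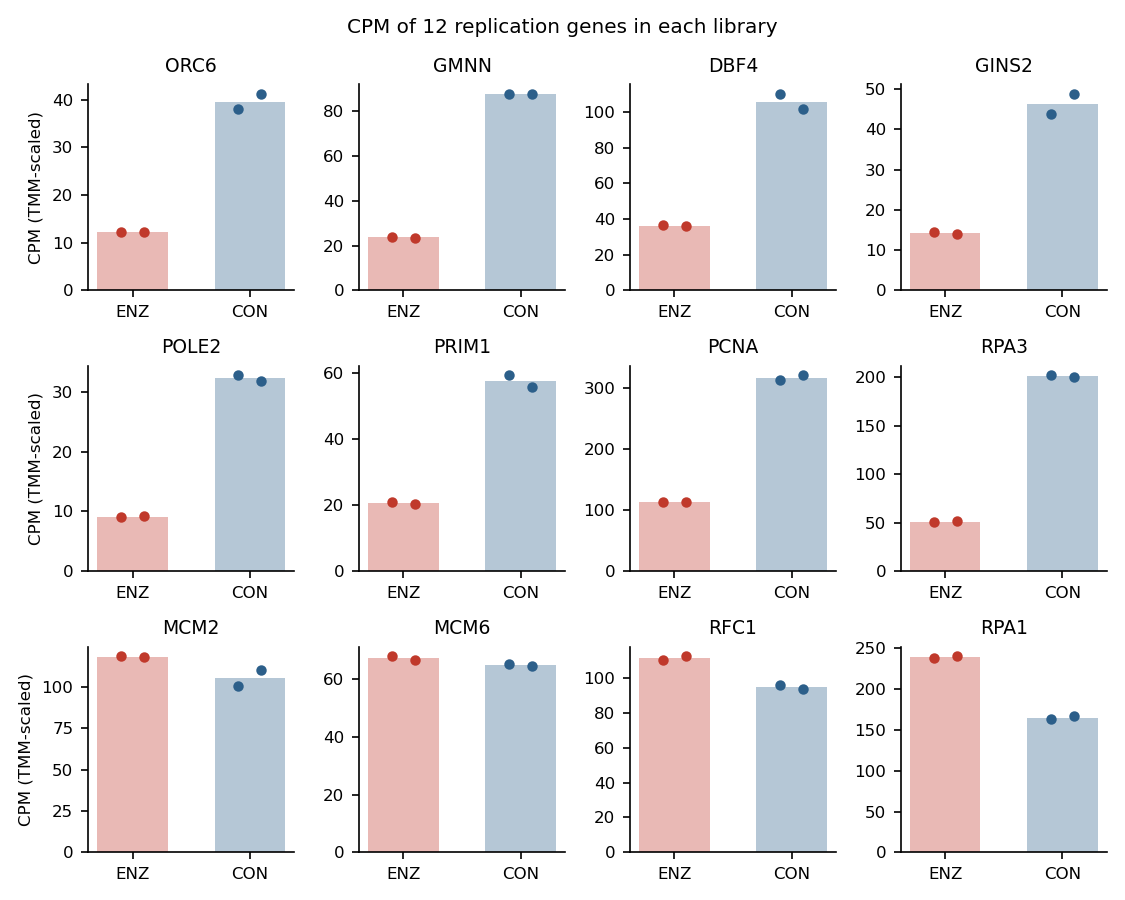
CPM on TMM-scaled library sizes of 12 replication genes in each library (points) with the group mean (bar), C4-2-ENZ left of C4-2-CON. In 8 genes both C4-2-ENZ points lie below both C4-2-CON points by more than 2-fold, and in MCM2, MCM6, RFC1 and RPA1 both C4-2-ENZ points lie above, though the order of MCM2 turns with the length and GC correction and that of MCM6 in a fit of protein-coding genes only.

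Polymerase alpha with primase lays the RNA-DNA primers that start each new strand. PRIM1, the catalytic primase subunit, had 20.9 and 20.3 CPM in C4-2-ENZ, against 59.4 and 55.9 CPM in C4-2-CON, and fell 2.79-fold (log2 fold change -1.48, SE 0.0554, edgeR adjusted p = 7.4e-10). POLA1, the polymerase subunit of the same complex, had 38.4 and 38.5 CPM in C4-2-ENZ, against 39.3 and 39.8 CPM in C4-2-CON. It was not called (log2 fold change -0.04, SE 0.0497, edgeR adjusted p = 0.51), though with total count scaling its value was 0.15 and called higher, and with protein-coding genes only it was -0.13 and called lower. The primase regulatory subunit PRIM2 and the accessory subunit POLA2 had log2 fold changes of -0.81 and -0.47. The ratio of PRIM1 to POLA1 per kilobase of exon was 1.42 and 1.37 in C4-2-ENZ and 3.93 and 3.65 in C4-2-CON. From the fitted fold changes this ratio was 2.71-fold lower, but 2.10-fold with the length and GC correction, where PRIM1 had -0.99. This difference in ratio was not tested.

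The 3 members of polymerase delta, which synthesises mainly the lagging strand, showed small changes that depended on the scaling. POLD4, a subunit outside the members, was called higher under TMM (log2 fold change 0.41). It was also called higher with the length and GC correction (0.27) and with total count scaling (0.60). Under TMM POLD2 and POLD3, both accessory subunits, were called lower, with log2 fold changes of -0.26 each. With total count scaling neither was called (-0.07 each). With the length and GC correction POLD2 had -0.43 and POLD3 -0.23, both called lower. POLD3 had 22.6 and 21.9 CPM in C4-2-ENZ, against 26.7 and 26.7 CPM in C4-2-CON (SE 0.0579, edgeR adjusted p = 0.00183). POLD1, the catalytic subunit, had 33.7 and 31.0 CPM in C4-2-ENZ, against 29.1 and 33.9 CPM in C4-2-CON. The groups overlapped, and POLD1 was not called (log2 fold change 0.03, SE 0.0736, edgeR adjusted p = 0.702). Its value was -0.36 and called lower with the length and GC correction, and 0.22 and called higher with total count scaling, so these data give no direction for it.

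All 3 members of polymerase epsilon, which synthesises the leading strand, were called lower, as was POLE4, a subunit outside the members (log2 fold change -0.65). POLE2, the second subunit, had 9.08 and 9.22 CPM in C4-2-ENZ, against 32.7 and 31.7 CPM in C4-2-CON. The gene lies on chromosome 14 at 49643555 to 49688422 (- strand) and fell 3.52-fold (log2 fold change -1.82, SE 0.0616, edgeR adjusted p = 3.53e-10). POLE3, a histone-fold accessory subunit, had a log2 fold change of -0.85. POLE, the catalytic subunit, had -0.22, which became -0.03 and was not called with total count scaling. After the length and GC correction it was -0.72. The ratio of POLE2 to POLE per kilobase of exon was 0.763 and 0.791 in C4-2-ENZ and 2.43 and 2.28 in C4-2-CON. From the fitted fold changes this ratio was 3.03-fold lower, but 1.57-fold with the length and GC correction, where POLE2 had -1.37.

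PCNA, the sliding clamp that holds polymerases on DNA, was the most abundant member per kilobase of exon in both groups. It had 113.4 and 114.2 CPM in C4-2-ENZ, against 313.2 and 320.7 CPM in C4-2-CON. PCNA lies on chromosome 20 at 5114953 to 5126626 (- strand), and it fell 2.79-fold (log2 fold change -1.48, SE 0.0382, edgeR adjusted p = 4.8e-11). With the length and GC correction the fall was smaller, at -1.05. The clamp loader moved unevenly. Its small subunits RFC4, RFC3 and RFC5 had log2 fold changes of -1.21, -1.04 and -0.83. RFC2 had 57.8 and 60.1 CPM in C4-2-ENZ, against 59.7 and 64.3 CPM in C4-2-CON, with overlapping groups. It was not called (log2 fold change -0.07, SE 0.0478, edgeR adjusted p = 0.197), and its value was 0.11 when scaled by total count and 0.04 after the length and GC correction. It was called lower with a 1 CPM filter (-0.12), with protein-coding genes only (-0.16) and without C4-2-CON replicate 1 (-0.12).

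RFC1, the large subunit of the loader, had 110.1 and 112.2 CPM in C4-2-ENZ, against 96.0 and 93.8 CPM in C4-2-CON, and rose (log2 fold change 0.23, SE 0.042, edgeR adjusted p = 0.000512). This rise held its call in every one of the 12 alternative settings run. The ratio of RFC4 to RFC1 per kilobase of exon was 0.751 and 0.707 in C4-2-ENZ and 1.93 and 2.01 in C4-2-CON.

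Replication protein A coats single-stranded DNA, and its subunits moved in opposite directions. RPA3, the small subunit, had 50.8 and 51.9 CPM in C4-2-ENZ, against 202.2 and 200.6 CPM in C4-2-CON. This was the largest fall of any member, 3.92-fold (log2 fold change -1.97, SE 0.042, edgeR adjusted p = 1.41e-11). It rests on 2449 and 2152 counts in C4-2-ENZ and 4821 and 5629 counts in C4-2-CON. RPA3 lies on chromosome 7 at 7636518 to 7718607 (- strand). RPA1, the large DNA-binding subunit, on chromosome 17 at 1829702 to 1900082 (+ strand), had 237.9 and 240.0 CPM in C4-2-ENZ, against 163.4 and 166.4 CPM in C4-2-CON. It rose 1.45-fold (log2 fold change 0.53, SE 0.0377, edgeR adjusted p = 1.51e-07) and held this call in all 12 alternative settings run.

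RPA2, the middle subunit, had a log2 fold change of -0.16, but 0.03 when scaled by total count and 0.06 after the length and GC correction, not called in either. Its call also ended without C4-2-ENZ replicate 2 (edgeR adjusted p = 0.18). Per kilobase of exon, RPA3 made up 17.6% and 18.1% of the summed level of the 3 subunits in C4-2-ENZ, against 49.7% and 49.6% in C4-2-CON. RPA1 made up 48.5% and 49.1% in C4-2-ENZ, against 23.7% and 24.2% in C4-2-CON. The ratio of RPA3 to RPA1 was 0.363 and 0.368 in C4-2-ENZ and 2.10 and 2.05 in C4-2-CON. Among the 49 members ranked by level per kilobase, RPA3 was number 15 in C4-2-ENZ and number 2 in C4-2-CON, and RPA1 was number 2 in C4-2-ENZ and number 11 in C4-2-CON. The small and the large subunit thus exchanged their order on this scale, which, like the shares and ranks, depends on the exon lengths used.

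**Figure D4:**
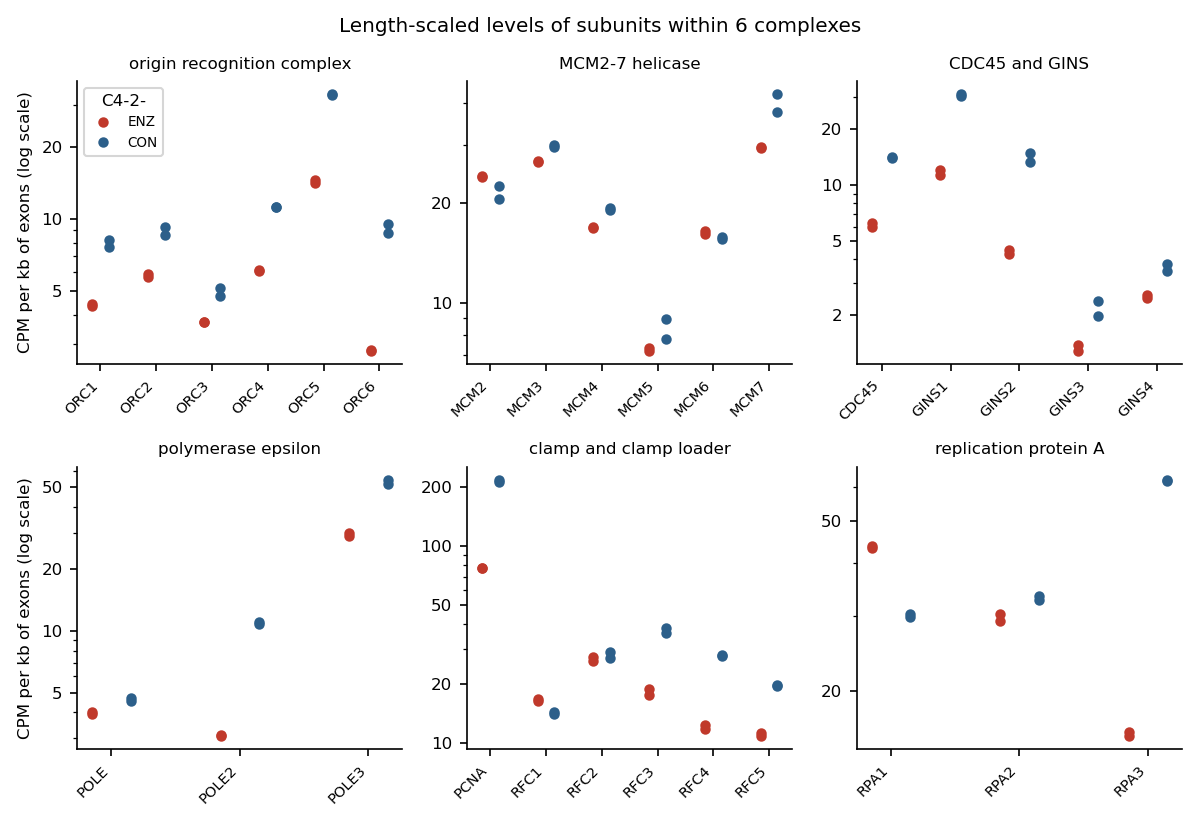
Level per kilobase of exon (CPM per kb, log axis) of each subunit of 6 complexes in the 2 C4-2-ENZ (left) and 2 C4-2-CON (right) libraries. In replication protein A the order of RPA1 and RPA3 differs between the groups, and the 2 groups lie close together in most MCM2-7 subunits, where the order of the groups in MCM2, MCM3, MCM4 and MCM6 turns under other scalings, gene sets or corrections.

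The genes that join and seal lagging-strand fragments showed small differences. FEN1, the flap endonuclease, had 51.2 and 50.9 CPM in C4-2-ENZ, against 53.6 and 57.6 CPM in C4-2-CON. It was called lower by a small margin (log2 fold change -0.12, SE 0.0473, edgeR adjusted p = 0.0376). Total count scaling gave 0.064 and the length and GC correction -0.073, and FEN1 was not called in either. The call ended without C4-2-ENZ replicate 1, C4-2-ENZ replicate 2 or C4-2-CON replicate 2 (edgeR adjusted p = 0.212, 0.261 and 0.355). LIG1, the ligase, had 19.3 and 18.1 CPM in C4-2-ENZ, against 18.2 and 19.7 CPM in C4-2-CON, with overlapping groups. It was not called (log2 fold change -0.02, SE 0.0669, edgeR adjusted p = 0.818), with 0.17 under total count scaling and -0.34, called lower, after the length and GC correction.

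All 4 genes of the fork scaffold and fork protection were called lower, and their log2 fold changes had a median of -0.45. TIPIN, partner of TIMELESS in the fork protection complex, had 18.2 and 18.6 CPM in C4-2-ENZ, against 35.3 and 33.5 CPM in C4-2-CON (log2 fold change -0.90, SE 0.0592, edgeR adjusted p = 8.15e-08). TIPIN shares 21.0% of its exon bases with a processed pseudogene of a ribosomal protein, so reads there may be missing from its count. CLSPN, claspin, which relays the checkpoint signal at stalled forks, had 18.6 and 18.8 CPM in C4-2-ENZ, against 26.6 and 23.7 CPM in C4-2-CON (log2 fold change -0.42, SE 0.0673, edgeR adjusted p = 0.000163). WDHD1, which links the helicase to polymerase alpha, had a log2 fold change of -0.48. TIMELESS had -0.23, and -0.04 with no call under total count scaling.

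Levels per kilobase of exon ordered the members in each group. PCNA led in C4-2-ENZ at 77.4 ± 0.38 CPM per kb, followed by RPA1 at 43.5 ± 0.27 and POLD2 at 40.0 ± 1.04 (SD, n = 2). In C4-2-CON PCNA led at 215 ± 3.62 CPM per kb, followed by RPA3 at 62.3 ± 0.36 and POLE3 at 53.0 ± 1.88 (SD, n = 2). GINS3 was lowest, at 1.34 ± 0.07 CPM per kb in C4-2-ENZ and 2.19 ± 0.29 in C4-2-CON (SD, n = 2). The lengths are those of all annotated exons together, so a gene with many minor isoforms has its level understated. The first 3 positions were separated by more than the spread between libraries in each group.

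Length and base composition went with the size of the change. Across the 49 members, log2 fold change correlated with log2 exon length at Pearson r = 0.415 (Spearman rho 0.412) and with GC content at r = 0.447 (rho 0.463), the shorter and AT-richer members being lower. These are descriptions over genes that share the same 4 libraries. Across the 13942 protein-coding genes the values of r were 0.153 and 0.177. Of 12 members with under 3000 exon bases, 11 were called lower (median log2 fold change -1.12), and of 37 longer members 30 were called lower (median -0.47). Of protein-coding genes in the same classes, 40.0% of the shorter were called lower (median -0.11) and 29.03% of the longer (median 0.13). With offsets for length and GC content the medians were -0.81 and -0.47, and r was 0.233 with length and 0.133 with GC content. With that correction 40 of the 49 members were called lower and 3 higher, with a median of -0.62, against 30.3% of the 20122 genes tested called lower.

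**Figure D5:**
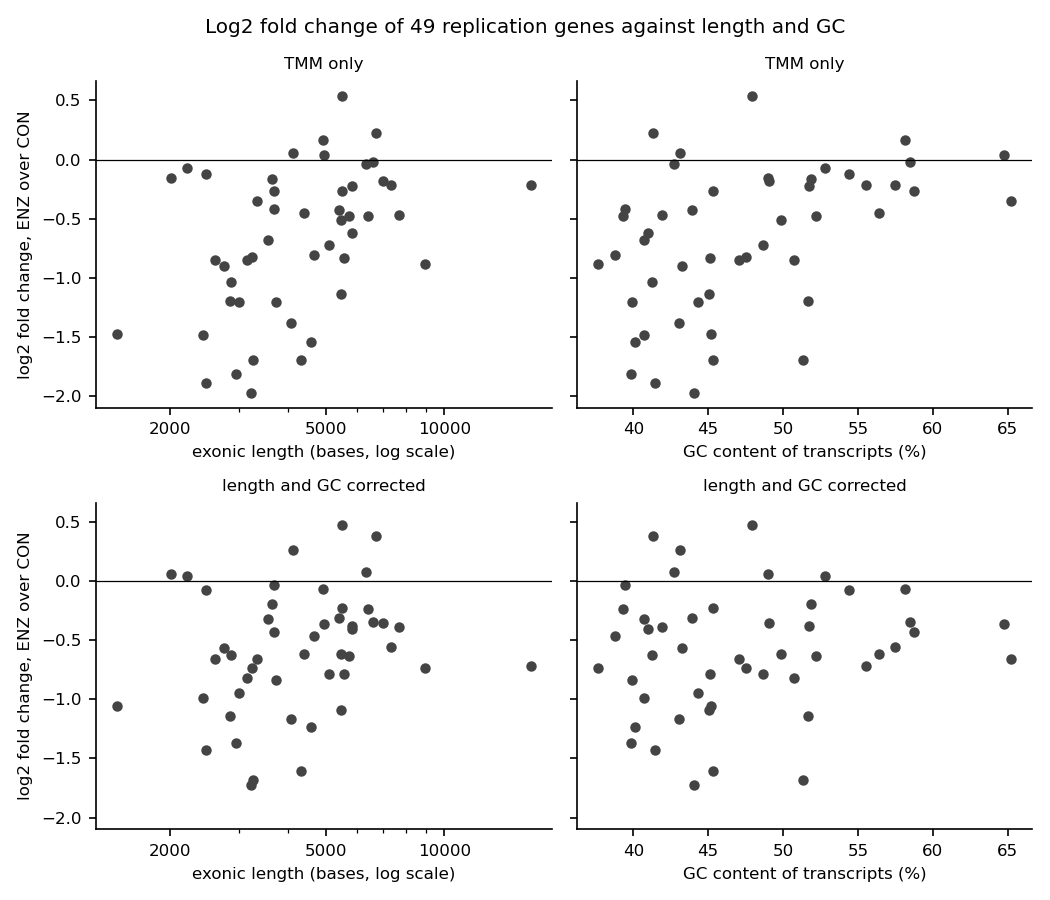
Log2 fold change (C4-2-ENZ over C4-2-CON) of the 49 replication genes against exon length (left, log axis) and GC content of transcripts (right), with TMM scaling only (upper panels) and after the length and GC correction (lower panels). The slope toward lower values at short lengths and low GC content is flatter in the lower panels, and most points stay below 0.

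Replication genes outside the members were read from a list of 59. Of these 42 were called lower, 8 higher and 9 were not called, with a median log2 fold change of -0.44. Total count scaling gave 33 lower and 13 higher. Of all genes tested 31.7% were called lower and 33% higher, or 23.4% and 42.4% with total count scaling. Among origin control genes 13 of 19 were lower and 3 higher, which were MCM9, CUL4A and DDB1. CCNA2, cyclin A, had 48.2 and 44.2 CPM in C4-2-ENZ, against 118.6 and 116.0 CPM in C4-2-CON (log2 fold change -1.34, edgeR adjusted p = 7.4e-10). TICRR, which brings CDC45 to origins, had a log2 fold change of -0.99. Among fork factors 16 of 24 were lower and 3 higher, which were POLD4, TOP1 and CHAF1A. PCLAF, a small protein that binds PCNA, had 35.9 and 36.9 CPM in C4-2-ENZ, against 125.0 and 126.7 CPM in C4-2-CON (log2 fold change -1.79, edgeR adjusted p = 3.33e-11). DSCC1, of an alternative clamp loader, had -1.55.

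Of 10 replication checkpoint genes 9 were called lower and none higher under TMM, and total count scaling gave 4 lower and none higher. RAD17 and RAD1, which load and form the checkpoint clamp, had log2 fold changes of -0.59 and -0.41. Of 6 genes that unload the helicase after synthesis, 4 were lower and 2, UBXN7 and VCP, higher, where 33% of all genes tested were called higher. LRR1, which recruits a ubiquitin ligase to the helicase, had a log2 fold change of -1.18. VCP, the segregase that extracts it, had 529 and 523 CPM in C4-2-ENZ, against 360 and 383 CPM in C4-2-CON, and rose (log2 fold change 0.50, edgeR adjusted p = 3.22e-07). Of 20 mitosis genes 18 were called lower and 1 higher, with a median of -0.89, against 31.7% of all genes tested called lower and 33% higher. The higher one was CENPF, at a log2 fold change of 0.13. CENPF, MKI67, PRC1, MCM9, CUL4A, DDB1, POLD4, POLE4, TOP1, CHAF1A and UBXN7 were named after their values were seen. Among the 20 mitosis genes CDK1 had 130 and 127 CPM in C4-2-ENZ, against 507 and 496 CPM in C4-2-CON (log2 fold change -1.96). CCNB1, cyclin B, had a log2 fold change of -1.58. MKI67 had only -0.20, and -0.009 with no call under total count scaling, and PRC1 was not called (-0.001). Most of the listed genes of division thus fell beside the replication genes in the same libraries, by unequal amounts. The part of a smaller dividing share of cells was not tested.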

How the data were processed

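The submitters' processing notes name STAR 2.5.2b, HTSeq and the build GRCh38 (hg38). The version and settings of HTSeq and the gene annotation were not given in the sources used here. What the authors deposited are raw gene counts for each library, not normalized. The 5 rows that name no gene were left out of library sizes and tests, and held 55.4% and 56.9% of the records in C4-2-ENZ and 74.4% and 71.1% in C4-2-CON. Identifiers were matched without version to GENCODE 29, which named 56753 of 60483.

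Counts were filtered with filterByExpr (minimum count 10), scaled by TMM and fitted in edgeR 4.0.16 (R 4.3.3), whose quasi-likelihood F test was applied to 20325 genes, with Benjamini-Hochberg adjustment and group as the only term. The fit had 2 residual degrees of freedom and a biological coefficient of variation of 4.02%. Standard errors are approximate, from the fold change and the F statistic. Per-sample precision is limited by these counts, and 318 or fewer counts lay behind the scarcest member in 3 of 4 libraries. Libraries of a pair differed by more than sampling noise (chi-square per degree of freedom 2.38 in C4-2-ENZ and 5.67 in C4-2-CON). Each was counted as 1 replicate, though this excess does not show that they are separate cultures. Alternatives were total count scaling, DESeq2 1.42.0, other filters, a replicate block, offsets from a spline fit on exon length and GC content, protein-coding genes only, and each library left out. On simulated counts for this comparison over 19810 genes, edgeR recovered 87% of 100 genes changed 1.5-fold and 99% of 100 changed 2-fold, with 10 false calls. The simulation changed only 200 genes, as many up as down, with the same spread in both groups and no effect of length or GC content. In the data 31.7% of genes were called lower and 33% higher, so these rates need not hold for them.

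The members, lists and motif words were chosen with earlier results of these data known. Library values are given for the called member with the largest fall in each role, members higher or not called, the highest and lowest per kilobase, and ORC1, CDT1, GMNN, PCNA and CLSPN. From other lists the 2 called genes with the smallest adjusted p are named. Partner ratios and the luminal markers shown were chosen after values were seen, and 1 marker and the marker sum that holds it are not reported here.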

Additional observations from a re-analysis of the deposited data

How the results depend on the processing

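Of the 49 members, 33 kept their direction and their side of the threshold in all 12 alternative settings, and so did 31 of the 41 called lower. Over the settings that keep all libraries, the count of members called lower was lowest with total count scaling, at 32 (23.4% of all genes tested). It was highest with protein-coding genes only, at 43 (37% of the genes in that fit). It was 33 with no count filter (13.9%) and 42 with a 1 CPM filter (37.6%). With 1 library left out, the lone sample of a group is assumed to vary like the other group. The count called higher was 6 with total count scaling and 2 to 4 with 1 library left out. The median log2 fold change of members was -0.33 with total count scaling, -0.42 with no count filter, -0.62 with the length and GC correction, -0.62 with that correction and the replicate block, and -0.61 with protein-coding genes only, and -0.56 to -0.48 with 1 library left out. Of other replication genes 13 were higher with total count scaling, against 8. Of mitosis genes 2 were higher with total count scaling, 0 with a 1 CPM filter, 0 with protein-coding genes only and 0 to 1 with 1 library left out.

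Signs turned in these members. MCM2 was -0.065 with the length and GC correction and -0.064 with the replicate block added. With total count scaling MCM3 was 0.028, MCM4 0.0039, FEN1 0.064, POLA1 0.15, RFC2 0.11, RPA2 0.033 and LIG1 0.17. With no count filter POLA1 was 0.056, RFC2 0.022 and LIG1 0.077. With the length and GC correction POLA1 was 0.077, RFC2 0.041, RPA2 0.058 and POLD1 -0.36, and with the replicate block added 0.078, 0.044, 0.057 and -0.36. With protein-coding genes only MCM6 was -0.036 and POLD1 -0.056, and POLD1 was -0.013 with a 1 CPM filter. With 1 library left out POLD1 ran from -0.064 to 0.16 and LIG1 from -0.070 to 0.051. The cause of these turns was not tested. With DESeq2 RPA2 and FEN1 lost their calls (adjusted p = 0.0565 and 0.185), and with no count filter MCM3, MCM4, MCM5, POLD3, POLE, RPA2, FEN1 and TIMELESS did.

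Replicate numbers did not pair the libraries (correlation of same-number deviations -0.0228). With the replicate block 40 members were called lower, FEN1 losing its call (edgeR adjusted p = 0.0817), and no other member's call changed. Members not called had log2 fold changes of -0.07 to 0.05, and the members that lost a call with 1 library left out had -0.21 to 0.16, so 2 libraries a group limit what can be said of differences this small.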
